A study of Mus musculus with 7 samples.

Results

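The genes described here are Hras and Nras, which encode Ras GTPases, Braf, which encodes a Raf kinase, Map2k1 and Map2k2, which encode the kinases MEK1 and MEK2, and Mapk3, which encodes the kinase ERK1. They were chosen by gene name in the deposited papilloma table, by a rule that uses no measured value although earlier results of these data were known, and are 6 of its 14820 genes. Each of the 6 passed the filter on low values, a mean of at least 10 normalized reads in either group, which left 10466 genes for testing. RNA was measured in whole skin papillomas, which are benign epidermal tumors, of female mice aged 27 weeks. There were 3 p16 papillomas (numbered 1, 2 and 3) and 4 control papillomas (numbered 1, 2, 3 and 5). The p16 mice carried K5-rtTA and tet-p16. In these animals the Krt5 promoter drives the doxycycline-dependent activator rtTA, so that doxycycline induces the human p16 transgene in the basal epidermis. The control mice carried tet-p16 alone. Both groups shared every other treatment. At an age of 3 weeks they received DMBA, a mutagen, on the skin as a single dose of 50 nmol, then doxycycline in the drinking water from a week later together with repeated applications of the tumor promoter TPA. They were observed for 23 further weeks and killed 10 days after the last TPA treatment. The tet-p16 line had a mixed strain background and the K5-rtTA line was FVB. Per the study's methods, p16 and control mice were siblings. Whether the lesions of a group grew on different animals is not in the labels, and the p-values refer to the spread between lesions.

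Ras proteins are small GTPases at the inner face of the plasma membrane. When a growth factor receptor activates an exchange factor, Ras binds GTP and recruits Raf kinases, which phosphorylate MEK1 and MEK2, and these in turn phosphorylate the ERK kinases. Active ERK phosphorylates other kinases and transcription factors, and raises the transcription of a set of early and feedback genes. The p16 protein is an inhibitor of the cyclin D-dependent kinases. In mouse skin treated with DMBA and TPA, papillomas characteristically carry a DMBA-induced mutation of Hras, most often in codon 61.

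The reference sequence around this codon is shown for Hras, because papillomas of this model most often carry their Hras mutation there. It lies in exon 3 (GRCm38, GENCODE M21), at chr7:141192519-141192581 on the minus strand. The stretch runs 5′ to 3′ through codons 51 to 71 of the coding sequence, and codon 61 is in capitals.
Hras: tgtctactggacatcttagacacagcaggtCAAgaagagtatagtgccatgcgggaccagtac
The deposited table gives reads per gene and no base calls, so the allele carried by each papilloma was not measured here, and every value below is the summed RNA of all alleles.

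Values are normalized read counts, that is, reads of 3′ transcript ends divided by 1 size factor per library. The libraries held 1158035 to 4365391 reads, fewest in p16 papilloma 2, where 1 read was worth 2.89 normalized units, against 0.735 to 1.35 in the others. Intervals from read numbers cover counting error only. Keratinocyte markers were high in every lesion, with 8 of 8 tested, 2 of them higher in p16 papillomas, and sums of 84241 to 111618 in p16 papillomas and 77277 to 100277 in control papillomas. Of the other cell type markers, the red cell list was lower in p16 papillomas for 5 of 5 genes (sums of 211 to 864 in p16 and 1946 to 13915 in control papillomas). The neutrophil list held S100a8, S100a9, Csf3r, Cxcr2 and Mpo, while Ly6g, Ngp and Elane were absent from the data. Of 4 tested, 2 were higher in p16 papillomas and none was lower. The sums were 10808 to 21217 in p16 and 1911 to 4857 in control papillomas, with Mpo at 0 in some papillomas. Such a sum can rest on few genes of a list, and the cells that made the RNA were not identified, so it is not a count of cells. Skeletal muscle markers, with Actn3 and Pvalb at 0 in some papillomas, passed the test for 0 of 8 genes, and their sums were 164, 7164 and 1404 in p16 papillomas 1, 2 and 3 and 96.9 to 347 in control papillomas. Adipocyte markers were higher in p16 papillomas for 3 of 4 tested genes, although their sums were 1915 to 2555 in p16 and 1829 to 11294 in control papillomas. The part of these cells in the values below was not tested. Each of the 6 genes carries the deposited mark for expression in sorted keratinocytes. In whole lesions, fewer cells of a type and less RNA per cell cannot be told apart. Mouse Cdkn2a ranged over 8.68 to 26.9 in p16 papillomas and 16.9 to 52.1 in control papillomas (log2 change -1.21, limma, adjusted p = 0.175). The transgene is human, so this gene does not check the labels.

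The first question was whether RNA of the Ras-to-ERK kinases differed between p16 and control papillomas. None of the 6 genes passed the test (limma on log2(value + 1), adjusted p under 0.05), and edgeR and DESeq2 on the recovered reads also called 0 of 6. Across all tested genes, limma called 588, or 5.62%, of which 278 (2.66%) were higher and 310 (2.96%) were lower in p16 papillomas. At an unadjusted p under 0.05 the count was 1 of the 6, Hras, where 21.2% of all tested genes passed. In none of the 6 did the groups separate completely, which they did in 19.6% of all tested genes. The log2 changes, p16 minus control, were positive for Nras, Map2k1 and Map2k2 and negative for Hras, Braf and Mapk3. Their median was -0.03, and their median size without regard to sign was 0.15, against -0.02 and 0.30 over all tested genes. The number of genes called among all tested fell to 267 without p16 papilloma 2, 351 without control papilloma 2 or 5 and 382 without p16 papilloma 1, while the count among the 6 was 0 under each of the 17 alternative settings.

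**Figure D1:**
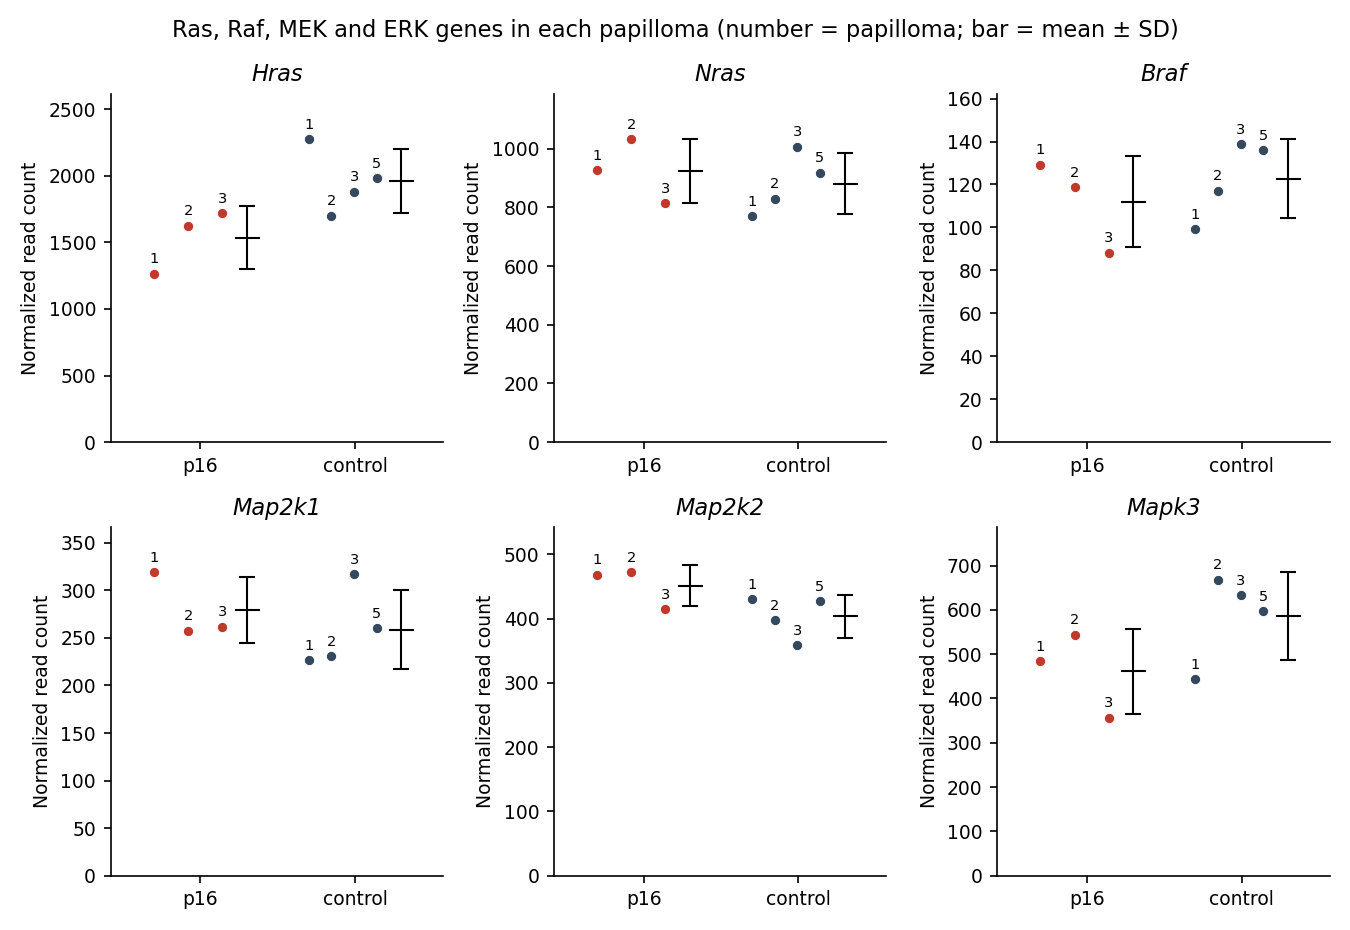
Normalized read counts (vertical axis, from 0) of Hras, Nras, Braf, Map2k1, Map2k2 and Mapk3 in 3 p16 (red, left) and 4 control papillomas (dark blue, right). Each numbered point is a papilloma, and the black bars give the mean and SD of its group. The points of both groups overlap in each panel, with the p16 mean of Hras at 1536 and the control mean at 1959.

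Hras (chromosome 7, 141189105 to 141194005, minus strand, 6 exons) had the largest log2 change of the 6. It had 1266, 1624 and 1717 normalized reads in p16 papillomas 1, 2 and 3, against 2276, 1701, 1880 and 1981 in control papillomas 1, 2, 3 and 5. In the p16 group, papillomas 1 and 2 lay below every control papilloma, and papilloma 3 lay just above control papilloma 2. The means were 1536 ± 238 in p16 papillomas (SD, n = 3) and 1959 ± 241 in control papillomas (SD, n = 4). The log2 change was -0.36 (SE 0.16, 95% interval -0.70 to -0.01), a fold of 0.781 with an interval of 0.614 to 0.995. Its unadjusted p was 0.0465 and its adjusted p was 0.228 (limma), so the difference did not hold up once all genes were taken into account. The adjusted p lay between 0.19 and 0.518 over the 17 alternatives, and the log2 change between -0.44 and -0.22, the weakest value without p16 papilloma 1. The fewest reads, 561 in p16 papilloma 2, give a counting error of 4.22%, smaller than the spread between lesions, since the coefficient of variation between lesions was 15.5% in p16 and 12.3% in control papillomas.

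Nras (chromosome 3, 103058285 to 103067914, plus strand, 7 exons), which encodes another Ras GTPase, was nearly level between the groups. It had 926.8, 1033 and 815.1 normalized reads in p16 papillomas 1, 2 and 3 and 769.5, 829.9, 1007 and 918.8 in control papillomas 1, 2, 3 and 5. The groups overlapped over most of their range. The means were 925.1 ± 109 in p16 papillomas (SD, n = 3) and 881.3 ± 104 in control papillomas (SD, n = 4). The log2 change of 0.07 (SE 0.15) had a 95% interval of -0.26 to 0.40, or 0.837-fold to 1.32-fold (limma, adjusted p = 0.833). Within this range, the lesions could not tell a difference from none, and without p16 papilloma 2 the log2 change was -0.012.

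Braf (chromosome 6, 39603237 to 39725463, minus strand, 22 exons) encodes the Raf kinase with the highest basal activity toward MEK. It had 129.1, 118.7 and 88.2 normalized reads in p16 papillomas 1, 2 and 3, against 99.07, 117.2, 138.8 and 135.9 in control papillomas 1, 2, 3 and 5. The groups overlapped, and p16 papilloma 3 was the lowest of the 7. The means were 112 ± 21.3 in p16 papillomas (SD, n = 3) and 122.7 ± 18.5 in control papillomas (SD, n = 4), with a log2 change of -0.14 (SE 0.20, interval -0.57 to 0.30, limma, adjusted p = 0.742). Without p16 papilloma 3 the log2 change was 0.02, so the direction of Braf rested on that lesion. Braf was also the most weakly counted of the 6, with 41 reads in p16 papilloma 2 and a counting error of 15.6% there. Ndufb2 overlaps it on the opposite strand and averaged 68.6 in p16 and 48.5 in control papillomas, so part of the reads could belong to either gene if strand was not used.

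Another Raf kinase gene, Araf, was added for comparison. It had 82.06, 81.05 and 79.38 normalized reads in p16 papillomas 1, 2 and 3, against 41.85, 48.32, 62.09 and 62.17 in control papillomas 1, 2, 3 and 5. Its groups did not overlap, as in 19.6% of all tested genes, with every p16 papilloma above every control papilloma. The means were 80.83 ± 1.35 in p16 papillomas (SD, n = 3) and 53.61 ± 10.2 in control papillomas (SD, n = 4). The log2 change of 0.60 (SE 0.21, interval 0.14 to 1.06), or 1.52-fold (1.11 to 2.09), missed the threshold (limma, adjusted p = 0.121). The lowest read number, 28 in p16 papilloma 2, gives a counting error of 18.9%. The coefficient of variation between p16 papillomas was only 1.67%, so their small SD says little of the spread between lesions.

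Both MEK genes had small positive log2 changes. Map2k1 (chromosome 9, 64185770 to 64253631, minus strand, 11 exons) had 318.8, 257.6 and 261.7 normalized reads in p16 papillomas 1, 2 and 3, against 226.3, 230.7, 316.8 and 260.3 in control papillomas 1, 2, 3 and 5. The highest p16 and the highest control papilloma were almost equal, and the groups overlapped. The means were 279.4 ± 34.2 in p16 papillomas (SD, n = 3) and 258.5 ± 41.7 in control papillomas (SD, n = 4), for a fold of 1.09 (0.84 to 1.40) and a log2 change of 0.12 (SE 0.17, limma, adjusted p = 0.737). Leaving out single papillomas moved the Map2k1 change between 0.019, without p16 papilloma 1, and 0.22, without control papilloma 3. Map2k2 (chromosome 10, 81105915 to 81133975, plus strand, 11 exons) had 468.1, 471.8 and 414.5 in p16 papillomas 1, 2 and 3, against 430.4, 397.4, 358.8 and 426.7 in control papillomas 1, 2, 3 and 5. In the p16 group, papillomas 1 and 2 lay above every control papilloma, and papilloma 3 lay within the control range. The means were 451.5 ± 32.1 in p16 papillomas (SD, n = 3) and 403.4 ± 33.2 in control papillomas (SD, n = 4), a fold of 1.12 (0.905 to 1.39) and a log2 change of 0.16 (SE 0.14, limma, adjusted p = 0.549), or 0.11 without control papilloma 3. Its coefficients of variation, 7.1% in p16 and 8.22% in control papillomas, were the smallest of the 6.

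Mapk3 (chromosome 7, 126759601 to 126765819, plus strand, 9 exons), the gene of ERK1, had the largest coefficient of variation of the 6 in both groups, 20.8% in p16 and 16.9% in control papillomas. It had 484.3, 544.2 and 356.5 normalized reads in p16 papillomas 1, 2 and 3, against 443.2, 668, 632.7 and 597.4 in control papillomas 1, 2, 3 and 5. Control papilloma 1 lay among the p16 papillomas, and the other controls lay above all of them. The means were 461.6 ± 95.9 in p16 papillomas (SD, n = 3) and 585.4 ± 99.0 in control papillomas (SD, n = 4). The log2 change was -0.35 (SE 0.19, interval -0.76 to 0.07), a fold of 0.786 with an interval of 0.589 to 1.05, at an unadjusted p of 0.0949 and an adjusted p of 0.321 (limma). Without p16 papilloma 3 the log2 change of Mapk3 was -0.17.

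**Figure D2:**
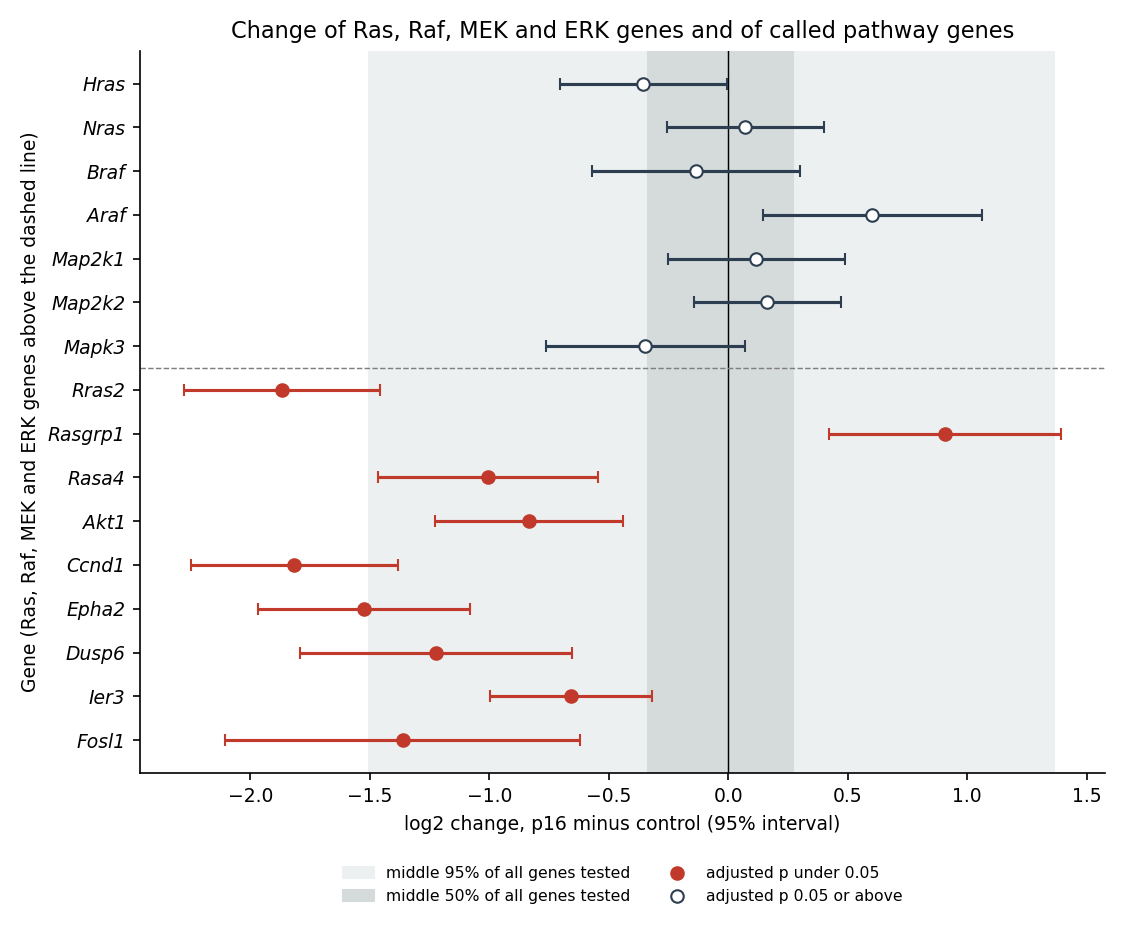
Log2 change, p16 minus control, with its 95% interval (horizontal axis) for the 6 Ras, Raf, MEK and ERK genes and Araf (above the dashed line) and for the 9 pathway genes that passed the test (below it). Grey bands hold the middle 50% (-0.33 to 0.27) and 95% (-1.50 to 1.36) of all tested genes. Open circles, the 7 genes above the line, did not pass the test, and Rras2 at -1.87 is the filled circle furthest to the left.

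Within each group, the lesions did not order the 6 genes alike. In control papilloma 1, Hras and Map2k2 were the highest of the 4 controls, while Nras, Braf, Map2k1 and Mapk3 were the lowest. In p16 papilloma 3, Hras was the highest of the 3 p16 papillomas, while Nras, Braf, Map2k2 and Mapk3 were the lowest. Summed over the 6 genes, the normalized reads were 3593, 4049.5 and 3653 in p16 papillomas 1, 2 and 3, against 4245, 3944, 4334 and 4320.1 in control papillomas 1, 2, 3 and 5. The means were 3765 ± 248 in p16 papillomas (SD, n = 3) and 4211 ± 182 in control papillomas (SD, n = 4), a ratio of 0.894, and p16 papilloma 2 lay above control papilloma 2.

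The next question was whether the balance between related genes differed, since a share of reads within a papilloma does not depend on the scaling between libraries. With 3 against 4 papillomas, the exact permutation test cannot go below a two-sided p of 0.0571, so no share could pass 0.05, and 3 shares were compared. These are shares of reads and not of molecules, because genes differ in how well their 3′ ends are captured, and they are compared between papillomas only. Of the reads of Hras plus Nras, Hras took 57.7%, 61.1% and 67.8% in p16 papillomas 1, 2 and 3, against 74.7%, 67.2%, 65.1% and 68.3% in control papillomas 1, 2, 3 and 5. The groups overlapped, and the means of 62.2% ± 5.13 in p16 papillomas (SD, n = 3) and 68.8% ± 4.14 in control papillomas (SD, n = 4) differed by -6.63 points (exact p = 0.171, adjusted 0.429). The difference was -4.38 points without p16 papilloma 1 and -9.42 points without p16 papilloma 3. Of all 6 genes together, Hras took 40.8% ± 5.92 in p16 papillomas and 46.5% ± 4.91 in control papillomas, with overlapping groups (exact p = 0.286, adjusted 0.429). That difference of -5.72 points became -2.94 without p16 papilloma 1, -3.34 without control papilloma 1 and -8.83 without p16 papilloma 3.

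Of the MEK reads, Map2k1 took 40.5%, 35.3% and 38.7% in p16 papillomas 1, 2 and 3, against 34.5%, 36.7%, 46.9% and 37.9% in control papillomas 1, 2, 3 and 5. The means of 38.2% ± 2.64 in p16 papillomas (SD, n = 3) and 39.0% ± 5.46 in control papillomas (SD, n = 4) differed by -0.816 points (exact p = 0.971, adjusted 0.971). The sign turned without control papilloma 3 (1.82 points) or p16 papilloma 2 (0.613 points).

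**Figure D3:**
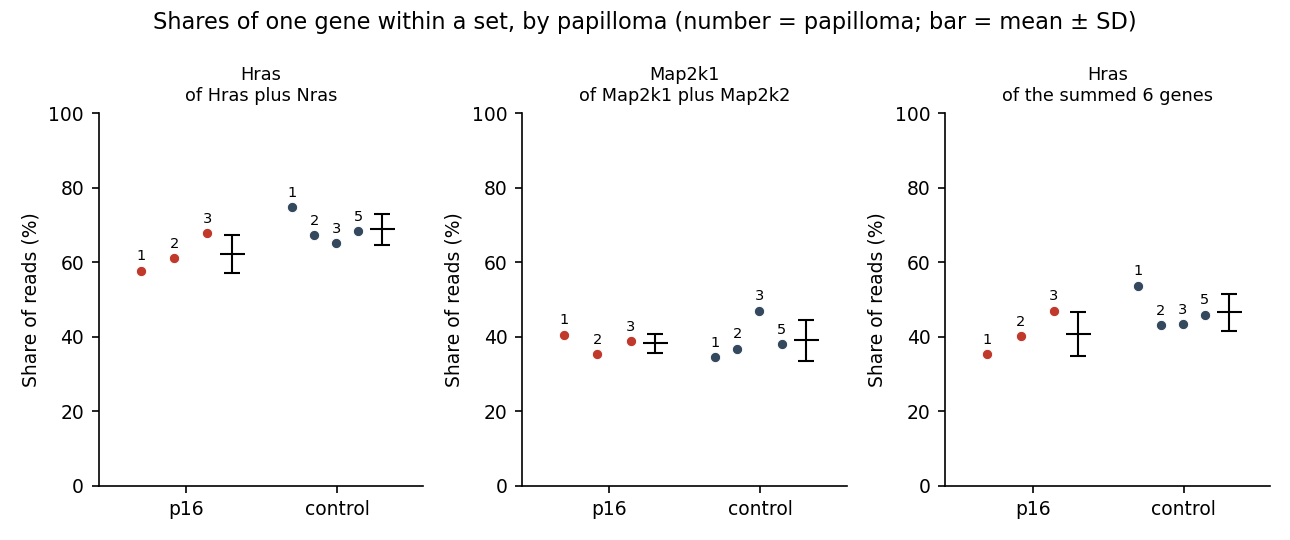
Share of reads (vertical axis, percent, 0 to 100) that one gene took within a set of related genes, in 3 p16 (red, left) and 4 control papillomas (dark blue, right). Numbered points are papillomas and black bars the mean and SD. The groups overlap in each panel, and the mean Hras share of Hras plus Nras is 62.2% in p16 and 68.8% in control papillomas.

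For each gene, the genes whose log2 values followed it most closely over the 7 papillomas are given as a description. The points share libraries and groups, and with 10466 candidates high values occur easily. For Hras these were Dut (Pearson r = 0.975), the dUTPase that keeps uracil out of DNA, and Clns1a (0.972), and for Nras they were Arvcf (0.990) and Rab27b (0.964). Braf was followed by Plekhg5 (0.980) and Cdc73 (0.980), Map2k1 by Dctn2 (0.976), a dynactin subunit, and Rabep2 (0.957), and Mapk3 by Dnajc16 (0.990) and Atp9a (0.970). For Map2k2 they were Mknk2 (0.982), a kinase that ERK activates, and Lce1g (0.980), of a family of similar cornified envelope genes, where sharing of reads between relatives was not tested. None of these 12 genes passed the test between p16 and control papillomas.

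The genes around the cascade were then examined by lists of named regulators and targets. Outside the list of ERK targets, 119 tested genes, Araf included, gave 1 higher and 3 lower calls in p16 papillomas, 4 calls where the 5.62% of all tested genes would give more, so the count says nothing particular of these lists. The largest change was in Rras2 (TC21), a Ras-related GTPase that shares effectors with Hras and Nras. It had 40.36, 57.89 and 53.66 normalized reads in p16 papillomas 1, 2 and 3, against 161.4, 201.7, 198.1 and 182.3 in control papillomas 1, 2, 3 and 5. The groups were far apart, with means of 50.63 ± 9.15 in p16 papillomas (SD, n = 3) and 185.9 ± 18.4 in control papillomas (SD, n = 4). Rras2 fell by 1.87 on the log2 scale (SE 0.19, limma, adjusted p = 0.000283), and the call held under each of the 17 alternatives. Of the 11 tested Ras-related GTPases it was the 1 that passed, 9 had negative log2 changes, and their median was -0.18.

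Of 10 tested activators and adaptors, 1 rose and none fell. Rasgrp1, an exchange factor for Ras that binds diacylglycerol and phorbol esters such as TPA, had 117, 104.2 and 101.4 normalized reads in p16 papillomas 1, 2 and 3, against 42.7, 57.98, 53.87 and 77.97 in control papillomas 1, 2, 3 and 5. All p16 papillomas were above all controls, for a log2 change of 0.91 (SE 0.22, limma, adjusted p = 0.0373). The call was lost on leaving out any papilloma except control papilloma 5, with adjusted p up to 0.118. Of 17 tested GTPase activating proteins and inhibitors, 1 fell. Rasa4, which promotes GTP hydrolysis by Ras after calcium signals, averaged 45.14 ± 6.76 in p16 papillomas (SD, n = 3) and 91.87 ± 15.2 in control papillomas (SD, n = 4). Its groups did not overlap, and its log2 change was -1.01 (SE 0.21, limma, adjusted p = 0.0186), with the call lost without control papilloma 2 (adjusted p = 0.0612) or p16 papilloma 2 (adjusted p = 0.0733).

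The other lists of kinase regulators and effectors gave 0 calls by limma, by edgeR and by DESeq2. At an unadjusted p under 0.05, which 21.2% of all tested genes reached, the counts were mostly at or below that share. Among 21 tested scaffolds and Raf regulators, 4 had an unadjusted p under 0.05, and the smallest p was that of Hsp90aa1, a chaperone of Raf kinases (log2 change -0.52, limma, adjusted p = 0.0975). Among 16 genes of Ras lipid modification and trafficking the count was 2, led by Abhd17c, of a family of enzymes that remove palmitate from Nras (-0.53, adjusted p = 0.117). Among 13 kinases and factors downstream of ERK it was 5, led by Bcl2l11, the pro-apoptotic protein Bim that ERK marks for degradation (-1.14, adjusted p = 0.0975), which passed without p16 papilloma 1 (log2 change -1.56, adjusted p = 0.0299). Among 16 genes of other MAP kinase cascades it was 2, led by Mapk6, which encodes ERK3 (-0.41, adjusted p = 0.169). The medians of these lists were -0.20, 0.14, -0.03 and 0.04 in the order given. In the PI3K and Akt list, 1 of 14 fell. Akt1 had 117, 81.05 and 118.3 normalized reads in p16 papillomas 1, 2 and 3, against 175.9, 180.0, 198.1 and 191.8 in control papillomas 1, 2, 3 and 5, a log2 change of -0.84 (SE 0.18, limma, adjusted p = 0.0205). That call was lost without control papilloma 2, control papilloma 5 or p16 papilloma 2 (adjusted p up to 0.0825).

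The last list held genes whose transcription commonly follows ERK activity. Of 15 tested, 5 fell and none rose, 9 had an unadjusted p under 0.05 and 12 had negative log2 changes, with a median of -0.67. Over all tested genes, 2.96% were called lower and 21.2% had an unadjusted p under 0.05, and the median log2 change was -0.02. The list did not fall as a whole. Spry1 (0.01), Myc (0.02), Etv5 (-0.22) and Dusp5 (-0.23) had smaller changes and did not pass (limma, adjusted p of 0.574 or above). The list was drawn up with earlier results of these data known, so the count is a description. Ccnd1, which encodes cyclin D1, a partner of the kinases that p16 inhibits, had 558.3, 370.5 and 479.2 normalized reads in p16 papillomas 1, 2 and 3, against 1243, 1499, 2032 and 1868 in control papillomas 1, 2, 3 and 5. Epha2, an ephrin receptor, had 90.13, 69.47 and 86.0 in p16 papillomas 1, 2 and 3, against 222.9, 187.2, 319.6 and 231.8 in control papillomas 1, 2, 3 and 5. In both genes the groups were well separated, and both calls held under the 17 alternatives (log2 changes of -1.82 and -1.52, limma, adjusted p = 0.000515 and 0.0016).

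Dusp6, the phosphatase that removes phosphate from ERK, had 125.1, 63.68 and 67.62 normalized reads in p16 papillomas 1, 2 and 3, against 153.7, 248.8, 216.4 and 162.3 in control papillomas 1, 2, 3 and 5. The highest p16 papilloma was close under the lowest control, and Dusp6 fell by 1.22 on the log2 scale (limma, adjusted p = 0.0195). The other calls were Ier3 (log2 change -0.66, limma, adjusted p = 0.0312), an early response gene, and the AP-1 subunit gene Fosl1 (-1.36, adjusted p = 0.0405). Under the 7 omissions of a papilloma, the call held in 4 for Dusp6, in 2 for Ier3 (without control papilloma 1 or 3) and in 1 for Fosl1 (without control papilloma 3). The adjusted p rose to 0.0855 for Dusp6 without p16 papilloma 2, to 0.116 for Ier3 without p16 papilloma 1 and to 0.114 for Fosl1 without p16 papilloma 3. The lowest log2 change of the list was that of Fos (-1.95, adjusted p = 0.135), and the highest that of Epha4 (0.44, adjusted p = 0.204), neither of which passed. Leaving out control papilloma 2, p16 papilloma 2 or p16 papilloma 3 left 2 calls in this list, and leaving out control papilloma 5 left 3. Over all lists, where the main fit called 9 genes, 4 were called without control papilloma 2 and 3 without p16 papilloma 2. In both omissions, Rras2, Ccnd1 and Epha2 were the only ones of the 9 that stayed called. The 4 therefore include a gene that the main fit did not call.

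**Figure D4:**
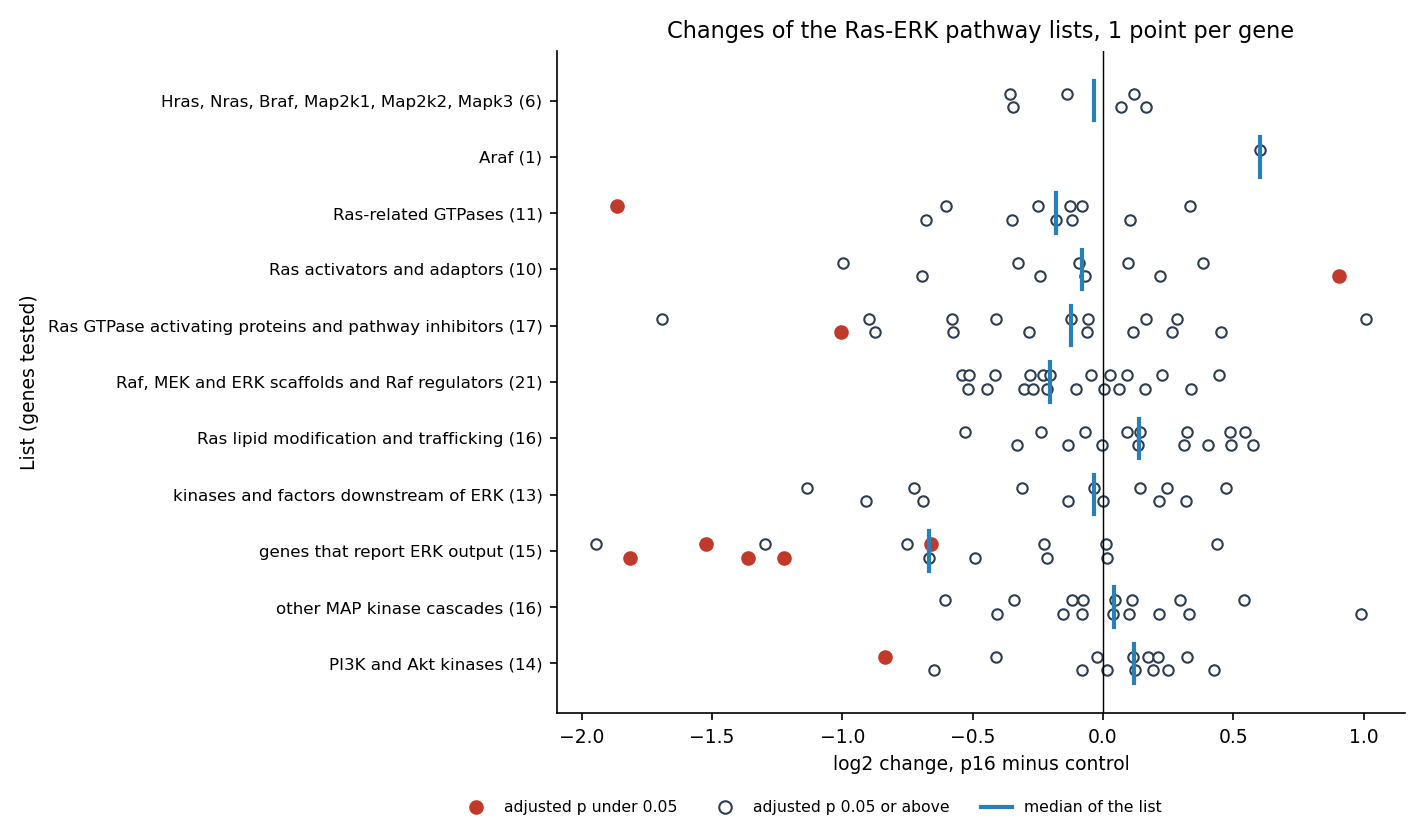
Log2 change, p16 minus control (horizontal axis), of each tested gene in the 6 Ras, Raf, MEK and ERK genes (top row) and in the lists of the pathway and Araf, with the number tested in parentheses. Red points passed the test, open points did not, and blue lines mark list medians. The 6 genes lie between -0.36 and 0.16, and 5 of the 9 red points are in the list of genes that report ERK output.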

How the data were processed

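RNA of whole papillomas was profiled by CEL-Seq2, which sequences 3′ ends. Per the study's methods and the submitters' processing notes, the authors trimmed reads with Cutadapt, aligned them to GRCm38 with TopHat2, obtained reads per gene from HTSeq and compared groups in DESeq2. Their versions, the strand setting and the treatment of multiply mapped reads are not given in the sources used here. The deposited signal values are the authors' read counts divided by a DESeq2 size factor per papilloma. The other deposited columns hold the authors' own comparison (5 columns of log2 fold changes, errors, statistics and p-values, not used) and a mark for keratinocyte-expressed genes.

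Samples were grouped by title. The values are not raw counts, so limma with an intensity trend was fitted to log2(value + 1) over the 10466 genes whose mean reached 10 in the p16 or the control group. Tests were two-sided and Benjamini-Hochberg adjusted over all of them. Fold changes on this scale understate changes of weakly expressed genes. Reads were recovered (100% of values whole at a tolerance of 0.001) for edgeR, which called 543 genes, and DESeq2, which called 786. Shares were compared by exact permutation tests over 35 splits. The limma, edgeR and DESeq2 fits were tried on simulated counts with large known changes. Small changes and the permutation tests were not simulated. Of the gene identifiers, 14801 of 14820 matched GENCODE M21, and near-identical transcripts were sought at 95% identity over 200 bases.

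The genes and lists were chosen with earlier results of these data known. Some genes and shares of the design are not reported here. Named genes are the 6 genes, Araf, up to 3 called genes per list with the smallest p or otherwise the 1 with the smallest p, Cdkn2a, and 2 genes of most similar pattern for each of the 6. Ier3, Fosl1, Fos, Epha4, Spry1, Myc, Etv5, Dusp5 and overlapping genes were named after their values were seen. Alternatives were pseudocounts of 0.5 and 4, no filter or a filter on the overall mean, TMM or library-total scaling, both count tests, the papilloma number as a block, a fit of keratinocyte-marked genes only, and leaving out each papilloma. Tools were Python 3.11.15 with scipy 1.17.1, pandas 2.3.3, numpy 2.4.6 and matplotlib 3.10.9, and R 4.3.3 with DESeq2 1.42.0, edgeR 4.0.16 and limma 3.58.1.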

Additional observations from a re-analysis of the deposited data

Results flagged for a closer look

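In the 4 control papillomas, 24 items were screened for a value that stands apart from its group, and 1 was found, close to the 1 in 20 that chance gives. It was Ier3, with 1305 normalized reads in control papilloma 1 against 1037 in the next highest control. This gap was 0.896 of the whole range of the control group, above Dixon's 95% critical value for 4 samples. Ier3 passed the test in 2 of 7 omissions of a papilloma, those of control papillomas 1 and 3 (limma, adjusted p = 0.0468 and 0.0465), and its adjusted p rose to 0.116 without p16 papilloma 1.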

How the results depend on the processing

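Of 466 comparisons of a result with an alternative, 411 kept direction and side of the threshold, and 30 lost a call. Of the rest, 1 gained a call, 4 changed sign and 20 counts moved by over 1.5 times. Part of the 411 was fixed in advance. No share could pass 0.05, and shares of recovered reads equal the main ones. Other filters leave each log2 change as it was, so only its adjusted p could move. Leaving out 1 papilloma each gave 267 to 548 genes called in place of 588, and 3 to 9 in place of 9 calls in the pathway lists. Such counts can include list genes that the main fit did not call. With the papilloma number as a replicate block, 270 genes and 5 list genes were called. Of the 9 main calls, the block fit kept only Rras2, Ccnd1, Epha2 and Fosl1. It lost Rasgrp1, Rasa4, Dusp6, Ier3 and Akt1 (limma, adjusted p of 0.0727 to 0.132). The log2 changes of that fit were those found without control papilloma 5, whose number no p16 papilloma shares. The labels do not say whether equal numbers are pairs. Correlations of deviations were -0.09, -0.01 and -0.05 for numbers 1, 2 and 3. No p16 papilloma correlated best with the control of its own number. With so few lesions this cannot decide whether the lesions were paired. The sign changes came from single omissions. They gave a range of -0.012 to 0.16 for the log2 change of Nras (negative without p16 papilloma 2), -0.25 to 0.025 for Braf (positive without p16 papilloma 3) and -2.33 to 1.82 points for the Map2k1 share. The cause was not tested. Scaling moved the median change of all genes little, from -0.022 to between -0.022 and -0.010. Depth was lowest in p16 papilloma 2, and among the genes described the fewest reads ranged from 3 for Cdkn2a and 6 for Bcl2l11 to 561 for Hras. Having 3 against 4 lesions limits every interval.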
